A study of Mus musculus with 4 samples.

Results

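The actin genes of the mouse genome were measured in C3H10T1/2 cells with and without 5-AZA. The genes were chosen by name, and they are Acta1, Acta2, Actb, Actc1, Actg1 and Actg2, which make up 6 of the 21878 genes and 9 of the 75959 transcript rows of the mRNA table. All 6 genes averaged 0.1 FPKM or more over the 4 samples and entered the test, Actc1 only through its levels in the treated samples. C3H10T1/2 is a mesenchymal stem cell line from mouse embryos, and 5-azacytidine (5-AZA) is a drug that lowers DNA methylation. The untreated group holds 2 samples (replicates 1 and 2). The treated group holds 2 samples (replicates 101 and 102) that were given 20 μmol/L 5-AZA for 72 hours and then kept in fresh medium for 21 days, and total RNA was sequenced from all 4. The labels list no culture time for the untreated samples, so the drug and the time in culture cannot be told apart. All samples come from the same established line. The study calls the replicates biological repeats, but the labels do not say whether they were separate cultures, so p-values may measure technical spread only.

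Actin is the protein of the thin filament. Sarcomeric actins, encoded by Acta1 in skeletal muscle and by Actc1 in heart and developing skeletal muscle, pair with myosin, tropomyosin and troponin in striated muscle. Smooth muscle actins are encoded by Acta2, which is also made by myofibroblasts and many cultured mesenchymal cells, and by Actg2, the enteric form. Cytoplasmic actins, encoded by Actb and Actg1, build the cortex and stress fibres of nearly every cell. The proteins are close to identical, and the genes differ mainly in where and when they are used. Serum response factor (SRF) is known to bind the CArG box, a short A and T rich element near the starts of muscle actin genes.

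The promoters of Acta1 and Actc1, whose RNAs rose together, are shown beside those of Acta2 and Actg1, whose RNAs did not pass the test. RefSeq's promoter table for GRCm38.p6 held these 4 of the 6 genes, and Actb and Actg2 were not matched. Each stretch is the 250 bases before the listed start, read 5′ to 3′ on the minus strand. Capitals mark each CArG box (CC, then 6 bases that are A or T, then GG) and each 10-base stretch that differs from it by 1 G or C among the 6 central bases. Both patterns read the same way on either strand. The stretches lie at chr8:123894776-123895025 for Acta1, chr2:114052876-114053125 for Actc1, chr19:34255374-34255623 for Acta2 and chr11:120348496-120348745 for Actg1.
Acta1 promoter: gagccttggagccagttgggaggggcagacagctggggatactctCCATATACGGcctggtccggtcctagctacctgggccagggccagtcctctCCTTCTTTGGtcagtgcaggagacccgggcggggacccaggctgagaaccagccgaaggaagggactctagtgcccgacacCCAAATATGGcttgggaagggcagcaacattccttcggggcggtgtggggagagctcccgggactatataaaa
Actc1 promoter: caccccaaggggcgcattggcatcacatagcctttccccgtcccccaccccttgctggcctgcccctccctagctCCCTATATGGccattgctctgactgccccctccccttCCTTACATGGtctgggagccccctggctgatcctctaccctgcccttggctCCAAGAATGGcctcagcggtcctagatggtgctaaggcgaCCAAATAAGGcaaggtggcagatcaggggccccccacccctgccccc
Acta2 promoter: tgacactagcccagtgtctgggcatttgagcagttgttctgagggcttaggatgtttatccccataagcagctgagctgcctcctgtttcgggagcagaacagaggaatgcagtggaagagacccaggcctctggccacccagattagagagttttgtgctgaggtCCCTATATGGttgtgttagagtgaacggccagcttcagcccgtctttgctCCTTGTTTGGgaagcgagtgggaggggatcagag
Actg1 promoter: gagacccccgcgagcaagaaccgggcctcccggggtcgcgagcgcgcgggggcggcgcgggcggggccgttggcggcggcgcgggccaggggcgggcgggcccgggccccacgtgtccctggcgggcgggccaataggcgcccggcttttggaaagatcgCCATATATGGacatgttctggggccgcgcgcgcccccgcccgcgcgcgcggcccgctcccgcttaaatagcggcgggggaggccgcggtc

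A full CArG box was found in the promoters of Acta1, Actc1 and Actg1, with its first base at -73, -47 and -90 from the listed start. Listed starts were taken as given. For Acta2 the gene span runs to base 34255585, which lies inside the stretch shown. Positions in Acta2 therefore depend on the start chosen. The window searched ran from 250 bases before the start to 50 after it. Of all 32851 RefSeq promoters of that length, 535 (1.63%) held such a box. The form with 1 central G or C was found at -205 and -154 in Acta1, at -175, -138 and -87 in Actc1, and at -84 and -34 in Acta2, and 8.50% of all promoters held it. The letters TATAAA, searched on both strands, were found at -7 in Acta1 and at 34 in Actc1, and in 13.6% of all promoters. The Actg1 promoter differed from the others in base composition. Its GC content was 77.3% and it held 50 CG dinucleotides, against 61% and 12 in Acta1, 62.7% and 7 in Actc1, 54.7% and 6 in Acta2, and medians of 52.7% and 7 over all promoters. These are matches of letters, and neither SRF binding nor DNA methylation was measured here.

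The levels of the 6 genes spanned a wide range. FPKM are fragments scaled to the length of a transcript and to the sequenced total, so they can be compared between genes. In both untreated samples the order from high to low was Actb, Actg1, Acta2, Actg2, Acta1 and Actc1, and no neighbours in that order overlapped. In the 5-AZA samples Acta1 stood level with Acta2, since the Acta2 values lay between the Acta1 values, and Actc1 lay above Actg2. With curated transcripts alone Acta2 was at 122 and 138 FPKM in these samples, below both Acta1 values. Actb and Actg1 remained the highest 2 actins in every sample. In bulk RNA, fewer cells of a type and less RNA per cell cannot be told apart, and this holds for every level given here.

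**Figure D1:**
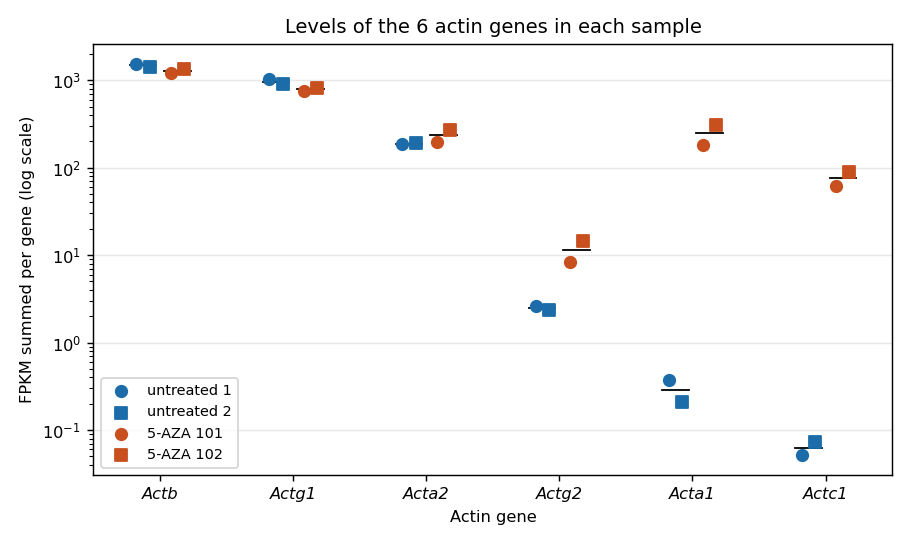
Level of each actin gene in each sample, as FPKM summed over its transcripts on a log scale, with blue points for untreated and orange points for 5-AZA samples and black bars for the means of 2 samples. The Acta1 points move from 0.369 and 0.211 to 182 and 312 FPKM and the Actc1 points from 0.0515 and 0.0728 to 61.6 and 89.2 FPKM, while the 4 points of Actb, of Actg1 and of Acta2 stay close to each other.

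Acta1, the actin of the adult skeletal muscle thin filament, was low in untreated cells and abundant after 5-AZA. It stood at 0.369 and 0.211 FPKM in the untreated replicates and at 182 and 312 FPKM in 5-AZA replicates 101 and 102. The groups were far apart, and the 5-AZA samples themselves differed 1.71-fold. Among all genes of the table its rank by level moved from 11214 and 11592 to 282 and 171. The means were 0.290 ± 0.111 and 247 ± 91.7 FPKM (SD, n = 2 each), a ratio of 852. In limma's fit across all genes, on the log2(FPKM + 0.1) scale, Acta1 rose by 9.29 (SE 0.27, 95% interval 8.67 to 9.90, adjusted p = 2.23e-07). The pseudocount of 0.1 FPKM is of the size of the untreated values, so the log2 value understates the ratio.

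Actc1, the actin of the heart that skeletal muscle also makes while it forms, moved in the same way. Its levels were 0.0515 and 0.0728 FPKM in untreated cells and 61.6 and 89.2 FPKM after 5-AZA. Every treated value lay above every untreated one, and replicate 102 was again the higher of the treated pair, by 1.45-fold. The means were 0.0622 ± 0.0150 and 75.4 ± 19.5 FPKM (SD, n = 2 each), a ratio of 1213. Actc1 rose by 8.84 on the log2 scale (SE 0.22, 95% interval 8.34 to 9.34, adjusted p = 1.66e-07). Its untreated values were below the pseudocount, so the size of the log2 value depends on that setting, from 6.14 with a pseudocount of 1 FPKM to 10.02 with 0.01 FPKM, and the gene was called under each.

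The 2 sarcomeric actins rose together, and Acta1 had the higher level in each sample. The ratio of treated to untreated means was 852 for Acta1 and 1213 for Actc1. The order of their log2 values depends on the pseudocount, at 9.69 for Acta1 and 10.02 for Actc1 with 0.01 FPKM. The ratio of Acta1 to Actc1 FPKM was 7.15 and 2.90 in untreated cells, where both genes are near the lower end of the values, and 2.96 and 3.49 after 5-AZA. The treated ratios lay within the untreated range. Acta1 thus made up 74.7% and 77.8% of sarcomeric actin RNA after treatment, against 87.7% and 74.3% in untreated cells (exact permutation test, two-sided, p = 1). With 2 samples against 2, the smallest p such a test can give is 0.333.

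Actg2, the enteric smooth muscle actin, rose by a smaller amount from a low level. It was at 2.63 and 2.39 FPKM in untreated cells and at 8.27 and 14.5 FPKM after 5-AZA. The groups did not overlap, and the treated samples differed 1.76-fold between themselves. Actg2 rose by 2.09 on the log2 scale (SE 0.25, 95% interval 1.52 to 2.65, adjusted p = 3.78e-04). Without 5-AZA replicate 102 the value was 1.68 and the call was not kept, but a single treated sample weakens any test. Without replicate 101 the value was 2.49. The call was also lost when genes of any level above 0 were fitted, with an adjusted p of 0.0680.

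Acta2, the α-smooth muscle actin, was already abundant in untreated cells and was not called. Its levels were 185 and 191 FPKM without 5-AZA and 196 and 273 FPKM with it. Replicate 101 lay just above the untreated samples and replicate 102 well above them. The means were 188 ± 3.86 and 234 ± 55.0 FPKM (SD, n = 2 each), and the log2 fold change was 0.30 (SE 0.15, 95% interval -0.04 to 0.64, adjusted p = 0.193). Without replicate 102 the value was 0.06, and without replicate 101 it was 0.54. Acta2 and Actg2 therefore stood in different proportion in the groups: the ratio of Acta2 to Actg2 FPKM was 70.3 and 79.8 in untreated cells and 23.7 and 18.8 after 5-AZA (exact permutation test, p = 0.333, the smallest possible).

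Actb, which encodes β-actin and is often used as a reference gene, was the highest actin in all samples. It was at 1552 and 1426 FPKM in untreated cells and at 1217 and 1328 FPKM after 5-AZA, and it ranked 17 to 20 among all genes in each sample. Both treated values lay below both untreated ones. The log2 fold change was -0.23 (SE 0.12, 95% interval -0.49 to 0.04, adjusted p = 0.208), and Actb was not called. With quantile normalization this value was -0.03 and with median centring it was -0.33 (adjusted p = 0.0334), a change under 2-fold.

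Actg1, which encodes γ-actin, the other cytoplasmic actin, stood beside Actb in each sample. It was at 1025 and 906 FPKM in untreated cells and at 759 and 825 FPKM after 5-AZA. As for Actb, the groups did not overlap and the treated samples were lower. The log2 fold change was -0.28 (SE 0.11, 95% interval -0.55 to -0.02, adjusted p = 0.113), and Actg1 was not called. The adjusted p was 0.0380 when samples were scaled to equal sums of FPKM and 0.0177 with median centring, and in both the change was under 2-fold. The ratio of Actb to Actg1 was 1.51 and 1.57 in untreated cells and 1.60 and 1.61 after 5-AZA.

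In all, 3 of the 6 actin genes were called higher (adjusted p below 0.05 and over 2-fold), against 13.1% of the 13199 genes tested. None of the 6 was called lower in limma's fit, against 1.32% of all genes, and at an unadjusted p below 0.05 Actg1 alone was lower. How many of all genes were lower at that unadjusted threshold was not counted. The groups did not overlap for any actin gene. For 4 of them (Acta1, Actc1, Actg2 and Acta2) the 5-AZA samples were higher, which was so for 36.8% of all genes, and for Actb and Actg1 they were lower, which was so for 25.4%. The median log2 fold change of the 6 genes was 1.19, and that of all genes tested was 0.05.

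**Figure D2:**
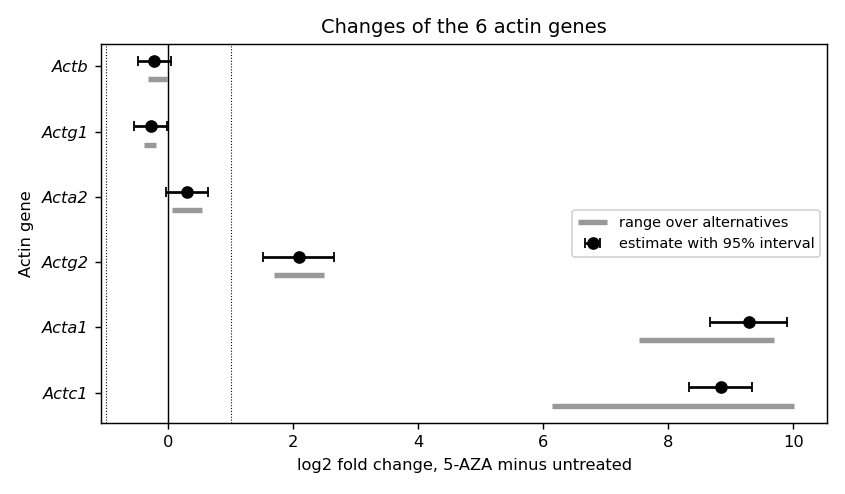
Log2 fold change of each actin gene, 5-AZA minus untreated, with black points and bars for the estimate and its 95% interval, grey bars for the range over the alternative settings, and dotted lines at changes of 2-fold. Acta1, Actc1 and Actg2 lie beyond the line on the right, and the intervals of Actb, Actg1 and Acta2 lie between the dotted lines.

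The 9 transcript rows showed which RNAs carried these sums. Acta1 was carried by NM_009606.3, at 0.366, 0.197, 180 and 309 FPKM in untreated replicates 1 and 2 and 5-AZA replicates 101 and 102. A minor Acta1 row, NM_001272041.1, was at 0.00306, 0.0139, 1.87 and 2.59 FPKM. Both rows were called higher, with log2 fold changes of 9.31 (adjusted p = 0.00109) and 4.41 (adjusted p = 0.0248) over 35557 transcripts. The single rows of Actc1 (NM_009608.4) and Actg2 (NM_009610.2) were called too, with adjusted p-values of 0.00109 and 0.0359, and the single row of Actb (NM_007393.5) was not called (adjusted p = 0.263). Their values are those of their genes. In all 4 of the 9 rows were called higher, against 2.1% of all transcripts tested. The untreated means of NM_001272041.1 and NM_009608.4 were below 0.1 FPKM. Both rows thus entered the test only through the treated samples, and the count is a description.

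Acta2 was split between a curated row and a predicted one. The curated NM_007392.3 was at 107, 113, 122 and 138 FPKM, and the predicted XM_006526606.2 was at 77.6, 77.4, 73.8 and 135 FPKM. The curated row was higher in both treated samples, whereas the predicted row overlapped between the groups and was high in replicate 102 alone. Neither was called (adjusted p = 0.340 and 0.587). Most of the excess of Acta2 in replicate 102 over replicate 101 thus stood in the predicted row. Actg1 was carried by NM_009609.3, at 1023, 905, 757 and 822 FPKM, and its minor row NM_001313923.1 was at 1.94, 1.09, 2.48 and 3.10 FPKM, with neither called (adjusted p = 0.214 and 0.351). The actin coding sequences are so alike that a fragment can fit several genes. How fragments were divided among them cannot be read from FPKM, so small differences between actins are uncertain. The same holds for the untreated levels of Acta1 and Actc1, at means of 0.0108% and 0.00237% of actin FPKM, and for ratios to them.

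The sum over all 6 genes overlapped between the groups while its make-up did not. Untreated cells gave 2765 and 2525 FPKM, and the treated replicates, at 2424 and 2841 FPKM, bracket them. The means were 2645 ± 169 and 2633 ± 295 FPKM (SD, n = 2 each), and the exact permutation test gave p = 1. Such a p does not show that the sums were equal, and FPKM give no amount per cell. Within the sum, the sarcomeric pair was higher by 322 FPKM on average and the smooth muscle pair by 55.5 FPKM, whereas the cytoplasmic pair stood at 2454 ± 173 FPKM in untreated and 2065 ± 124 FPKM in treated cells (SD, n = 2 each).

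Shares within a sample do not depend on how that sample was scaled. Acta1 made up 0.0133% and 0.00835% of actin FPKM in untreated cells and 7.51% and 11.0% after 5-AZA, and Actc1 made up 0.00186% and 0.00288%, against 2.54% and 3.14%. Together the sarcomeric actins held a mean of 12.1% ± 2.87 (SD, n = 2) of actin RNA after treatment. Acta2 held 6.70% and 7.55% in untreated and 8.07% and 9.62% in treated cells, and Actg2 held 0.0952% and 0.0945% against 0.341% and 0.511%. Every muscle actin thus held more of the sum in both treated samples. The cytoplasmic actins held less: Actb was 56.1% and 56.5% in untreated and 50.2% and 46.7% in treated cells, and Actg1 was 37.1% and 35.9% against 31.3% and 29.0%. They still made up 81.5% and 75.8% of actin RNA in the treated samples. Each of these 6 shares had groups that did not overlap, with an exact permutation p of 0.333, the smallest possible.

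Among the 4 muscle actins alone, Acta2 was nearly the whole in untreated cells and shared the sum with Acta1 after 5-AZA. Acta2 made up 98.4% and 98.6% of muscle actin RNA in untreated cells and 43.7% and 39.7% after 5-AZA. Acta1 went from 0.196% and 0.109% to 40.7% and 45.3%, so that Acta2 was ahead in replicate 101 and Acta1 in replicate 102. The order in replicate 101 rested on the predicted Acta2 row, at 73.8 FPKM, since the curated row, at 122 FPKM, was below Acta1, at 182 FPKM. Actc1 held 13.8% and 12.9% after treatment and Actg2 1.85% and 2.11%.

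**Figure D3:**
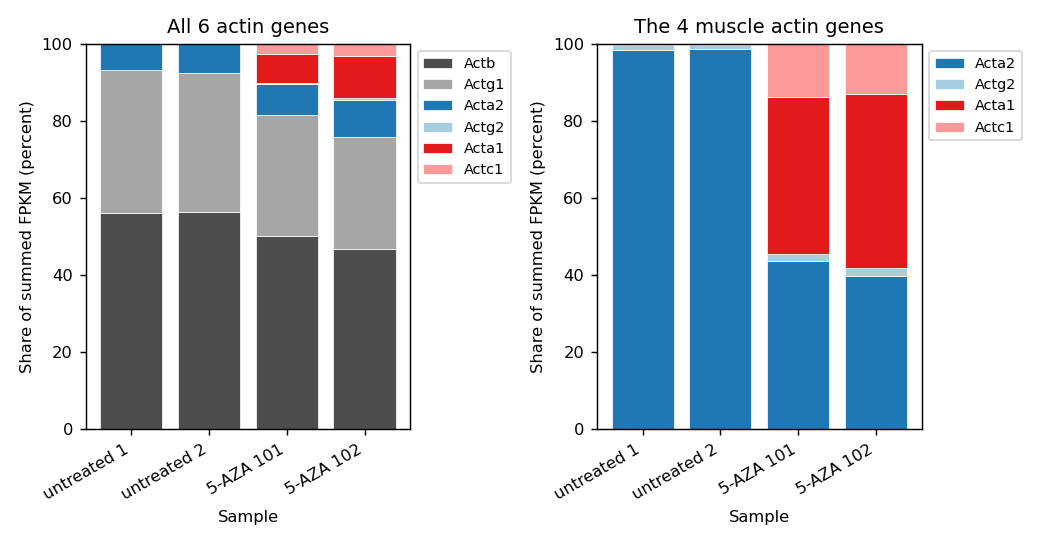
Share of each actin gene, in percent of summed FPKM, in each of the 4 samples, for all 6 genes on the left and for the 4 muscle actins on the right. The red and pink parts, Acta1 and Actc1, are too thin to see in the untreated samples and make up 10.05% and 14.1% of all actin in the 5-AZA samples, where Acta1 alone is 40.7% and 45.3% of muscle actin.

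Genes with the most similar levels differed from one actin to the next. Likeness was the Euclidean distance over the 4 samples of log2(FPKM + 0.1) among all genes tested, and it reflects level as well as change. Nearest to Acta1 were Myl1 (distance 1.18), Tnnc2 (1.23) and Mylpf (1.35), and nearest to Actc1 were Tnni2 (0.639), Ckm (0.747) and Myog (1.23). These encode fast muscle myosin light chains, troponin subunits, muscle creatine kinase and myogenin. Nearest to Actb were the ribosomal protein genes Rps4x (0.313), Rpl32 (0.347) and Rps23 (0.387), and nearest to Actg1 were Rps2 (0.162), Rpl7 (0.169) and Rps10 (0.227). Nearest to Acta2 were Gsn, which encodes the filament severing protein gelsolin (0.229), and Ubb (0.266). Nearest to Actg2 were Pnpla2, which encodes adipose triglyceride lipase (0.293), Lsp1 (0.340) and Deptor (0.374).

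Most genes of a list built around the partners of actin in the striated thin filament were called higher. The list also holds striated muscle genes outside the thin filament, so its count and median are not particular to that filament. Of 29 genes, 27 were tested, 22 were called higher, against 13.1% of all genes, and the median log2 fold change was 3.90. For 11 of these 22 the untreated mean was below 0.1 FPKM, so they entered the test only through the group where they were high, and the count and median are descriptions. Tnnc2, fast troponin C, was at 0.225, 0.106, 128 and 180 FPKM, and Tnni2, fast troponin I, at 0.128, 0.0538, 64.0 and 100 FPKM, with log2 fold changes of 9.20 and 8.74. Like the sarcomeric actins, both genes were low in each untreated sample and highest in replicate 102. Tpm1, which encodes tropomyosin 1 and is also made in non-muscle cells, was the most abundant of the list, at 281, 288, 445 and 552 FPKM, and its log2 fold change of 0.80 (adjusted p = 0.00151) was under 2-fold.

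Several smooth muscle contractile genes were called higher although Acta2 was not, a difference that was not itself tested. Of 14 genes, 11 were tested, 7 were called higher, against 13.1% of all genes, and the list's median change was 2.02 on the log2 scale. Of the 7, 2 had an untreated mean below 0.1 FPKM. Tagln, which encodes transgelin, was at 0.530, 0.321, 10.3 and 13.5 FPKM (log2 fold change 4.53), and Cnn1, which encodes calponin 1, was listed at 0 in untreated replicate 1 and at 0.0212, 1.23 and 1.07 FPKM in the others (3.50). Both stayed far below Acta2 itself. Cald1, caldesmon, was the most abundant at 126, 120, 128 and 134 FPKM, and its log2 fold change was 0.10 (adjusted p = 0.508). Myh11, the defining myosin of smooth muscle, was below the limit for testing, at 0.00941, 0.0583, 0.0862 and 0.152 FPKM, and Kcnmb1 was listed at 0 in all 4 samples. The count of 7 fell to 3 without either 5-AZA replicate 101 or 102.

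In the general machinery of actin assembly the shares called higher were below the 13.1% of all genes, a difference that was not tested. Among 51 genes of monomer and filament dynamics, 46 were tested and 3 were called higher, and the median change was -0.07. Those called were the formins Fmnl1 and Daam2 and the nucleator Cobl, none of which reached 0.6 FPKM in any sample. For 2 of these 3, Fmnl1 and Cobl, the untreated mean was below 0.1 FPKM, and 0 of the 3 were called under 8 of the 13 alternatives. Tmsb4x, which encodes the monomer-binding thymosin β4, was the most abundant at 765, 739, 935 and 978 FPKM, and its log2 fold change of 0.35 (adjusted p = 0.0417) was under 2-fold. Among 29 stress fibre and cortical crosslinkers, 28 were tested and 2 were called higher, and the median change was -0.06. These 2 were Ezr, which encodes the membrane linker ezrin, at 0.810, 0.850, 5.04 and 5.24 FPKM, and Pdlim1, at 0.285, 0.221, 1.57 and 3.22 FPKM, while Tpm4, the most abundant, differed by 0.23 on the log2 scale and did not pass (adjusted p = 0.143).

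Of 20 actin-related and actin-like genes, 10 were tested and 1 was called higher, a share near the 13.1% of all genes. It was Actr3b, at 0.0834, 0.190, 0.677 and 0.574 FPKM. Its paralogue Actr3, a subunit of the Arp2/3 complex that starts filament branches, was far more abundant, at 136, 125, 85.4 and 96.6 FPKM, and its log2 fold change of -0.52 (adjusted p = 0.00658) was under 2-fold. The median of this list was -0.09. None of 17 folding and modification genes was called in limma's fit, where 3 had an unadjusted p below 0.05, and their median change was -0.03. Cct2, a subunit of the chaperonin that folds actin, was at 174, 171, 155 and 166 FPKM. Over the 7 lists of genes that work with actin, 0 of 156 tested genes were called lower, near the 1.32% of all genes, and 17 were lower and 54 higher at an unadjusted p below 0.05. The share of all genes at that unadjusted threshold was not counted. These counts, and the 3 of the folding list, are therefore descriptions only.

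A list of 18 genes held SRF, genes listed with it and the myocardin family, and muscle lineage factors. Of these, 17 were tested and 5 were called higher, against 13.1% of all genes, and the median change was 0.14. Of these 5, 3 had an untreated mean below 0.1 FPKM. Myog, the myogenic factor myogenin, was at 0.0806, 0.101, 33.0 and 52.4 FPKM, and Abra, which encodes an actin-binding protein of striated muscle, was at 0.0166, 0.0327, 2.48 and 3.41 FPKM, with changes of 7.77 and 4.60 on the log2 scale. The others called were Myod1 (3.17), Fhl1 (1.58) and Mef2c (1.28). Myod1 and Myog are basic helix-loop-helix factors of the muscle lineage, and Mef2c is a relative of SRF. Rhoa, the most abundant, differed by -0.13 (adjusted p = 0.378). Srf itself, named here after its values were seen, was at 9.82, 6.62, 8.52 and 9.15 FPKM, overlapping between groups (log2 fold change 0.13, adjusted p = 0.684).

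**Figure D4:**
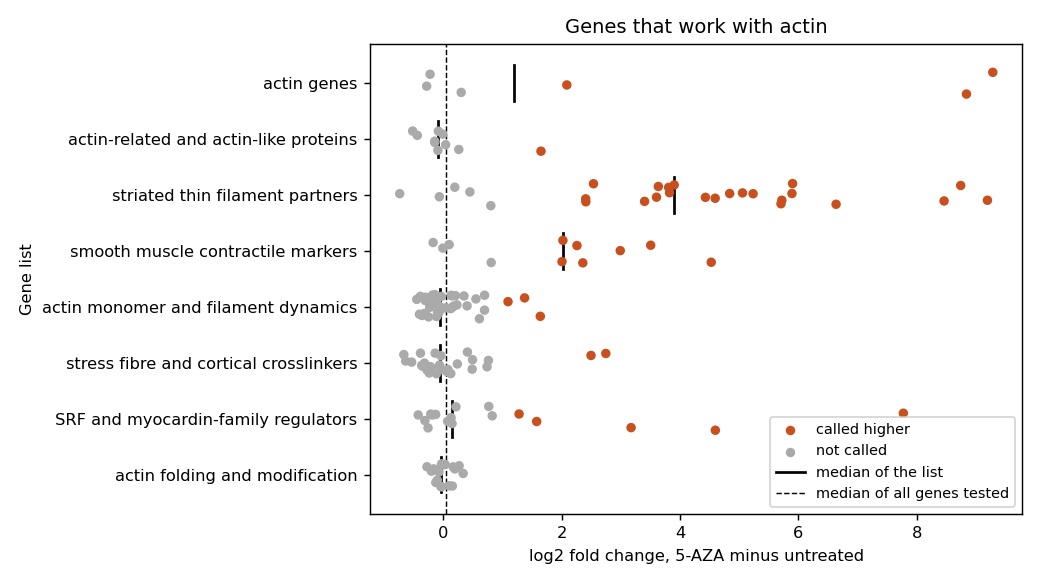
Log2 fold change, 5-AZA minus untreated, of each tested gene of the actin genes and of 7 lists of genes that work with actin, with orange points called higher, grey points not called, black bars at the median of a list and a dashed line at the median of all genes tested. Most points of the thin filament list and 7 of 11 in the smooth muscle list are orange. The medians of the dynamics, crosslinker, related and folding lists lie close to the dashed line, with a few orange points off it in the first 3 of these.

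The summed levels of skeletal muscle and adipocyte markers moved along with the sarcomeric actins. Of 9 skeletal muscle markers, 7 were tested and all 7 were called higher, against 13.1% of all genes. For 6 of them the untreated mean was below 0.1 FPKM. The summed level of the list was 0.507 to 0.532 FPKM in untreated and 438 to 644 FPKM in treated cells. Mylpf reached 353 and 517 FPKM and Ckm 43.6 and 65.2 FPKM, while Pax7 and Myf5 were listed at 0 in all samples. Of 7 cardiomyocyte markers, Myl7, Nppa, Nppb, Tbx5 and Hand2 were listed at 0 in all samples. Only Myh6 was tested, and it was called higher (log2 fold change 2.16, adjusted p = 0.00389). It was at 0.309 and 0.385 FPKM after 5-AZA, with untreated values at 0 or too small to carry a level. Myh6 thus entered the test only through the treated samples. All 6 adipocyte markers were tested and 5 were called higher, against 13.1% of all genes. For 1 of them, Cidec, the untreated mean was below 0.1 FPKM. The sum of the list was 27.9 to 43.5 FPKM in untreated and 1071 to 1470 FPKM in treated cells. Fabp4 was at 887 and 1196 FPKM after 5-AZA, Plin1 at 19.2 and 32.8 FPKM and Cidec at 15.6 and 26.9 FPKM. The skeletal muscle and adipocyte sums were higher in replicate 102 than in replicate 101, as were all 6 actin genes and the summed FPKM of all mRNAs. The part of these cell types in the actin values was not tested.

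Of 8 mesenchymal stromal markers, 7 were tested and 1 was called higher, a share near the 13.1% of all genes. It was Thy1, at 10.4 and 14.2 FPKM after 5-AZA against 0.578 and 0.785 FPKM in untreated cells. The sum of the list was 2631 and 2735 FPKM in untreated cells and 1644 and 1837 FPKM after 5-AZA. Most of it was Vim, the intermediate filament gene, whose log2 fold change of -0.87 (adjusted p = 0.00119) was under 2-fold. Nt5e was listed at 0 in both untreated samples. The endothelial markers summed to 0.456 to 0.662 FPKM in untreated and 1.88 to 1.90 FPKM in treated cells, with Kdr listed at 0 throughout. Of the 4 tested, Cdh5 and Tek were called higher, against 13.1% of all genes, and the untreated mean of Cdh5 was below 0.1 FPKM. The leukocyte markers summed to 1.16 to 1.47 FPKM in untreated and 2.41 to 3.70 FPKM in treated cells, with Adgre1 and Cd3e listed at 0 in all samples. Nearly all of the sum was Cd68, the only 1 of these markers tested, which was called higher. Summed mRNA FPKM ranged from 328410 to 361664 per sample. Of the 4295 circRNAs, 0 had an actin gene as host.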

How the data were processed

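RNA of 2 untreated and 2 5-AZA samples of C3H10T1/2 cells was depleted of ribosomal RNA and sequenced from stranded libraries, and the authors trimmed the reads with Trimmomatic. The deposited mRNA and lncRNA values are FPKM for each transcript, and the deposited circRNA values are RPM, of which only the hosts were used. The submitters' processing notes list HISAT2, Bowtie2 2.2.9, eXpress 1.5.1 and the build mm9. However, 1610 of 12731 RefSeq lncRNA genes of GRCm38.p6 had both ends equal to those of a deposited lncRNA, and all 1215 circRNA host transcripts found lay within their GRCm38.p6 gene, so GRCm38.p6 was used for distances. FPKM keep no read counts, so the depth behind each value is unknown and no counting interval was given.

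Transcript FPKM were summed per gene, and log2(FPKM + 0.1) was the input to limma 3.58.1 in R 4.3.3 (lmFit, then eBayes with a trend, both groups, no covariate), on the 13199 genes with a mean of at least 0.1 FPKM. P-values were adjusted over all genes by Benjamini and Hochberg's procedure, and the 95% intervals are not adjusted. Genes were called at an adjusted p below 0.05 and over 2-fold. Transcripts were fitted in the same way. Sums and shares were compared with two-sided exact permutation tests. The fit was tested on simulated data. Tables were joined with pandas 2.3.3, and figures were drawn with matplotlib 3.10.9.

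The members and the gene lists were chosen with earlier results of these data known. All 6 actin genes are named, and every transcript row of theirs with a mean of at least 1 FPKM. From each list the text names the 2 called genes with the largest change among those whose groups did not overlap and the gene with the highest mean, with markers listed at 0 and the 3 nearest genes of each actin. Some genes that this rule names are not reported here. Daam2, Myh11, Kcnmb1, Nt5e, Srf, Myod1, Fhl1 and Mef2c were named after their values were seen. Other pseudocounts, limits, scalings, transcript choices and omissions of each sample were tried.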

Additional observations from a re-analysis of the deposited data

Results flagged for a closer look

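Next to the actin genes, 18 lncRNAs lay within 2000 bases, 9 of them at 0.1 FPKM or more in a sample and 3 listed at 0 in all 4 samples. Both of the following were singled out after their values were seen, because a signal appeared in the 5-AZA samples in a table outside the comparisons above that was at or near 0 in the untreated samples. NONMMUT039168.2 begins 1366 bases from Actc1 on the opposite strand, with 3 exons and a length of 2872 bases, and was listed at 0 in both untreated samples and at 0.331 and 0.411 FPKM after 5-AZA (mean 0.371). NONMMUT067673.2 lies 1497 bases from Acta1 on the opposite strand, with 2 exons and a length of 1895 bases, and was at 0.506 and 0.576 FPKM after 5-AZA (mean 0.541), with untreated values too small to carry a level. These differences were not tested.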

How the results depend on the processing

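Of 267 comparisons of a result with an alternative setting, 224 were labelled the same, 41 moved, 2 were weaker and 0 reversed. For a fold change, the same means that the gene's call did not change, and for a count that it stayed near the main count. The 224 include the folding list, which had 0 called in the main fit and under every alternative. Acta1 and Actc1 were called higher under all 13 alternatives, with log2 fold changes of 7.54 to 9.69 and 6.14 to 10.02. Acta2, Actb and Actg1 were called under none and kept their sign, at 0.06 to 0.54, -0.33 to -0.03 and -0.39 to -0.20. Actg2 lost its call with no limit on low values (2.09) and was at 1.68 to 2.49 with a sample left out. Genes called higher numbered 875 with a pseudocount of 1 FPKM, 845 with a mean of at least 1 FPKM, 1041 with quantile normalization and 733 to 1617 with a sample left out. Those called lower numbered 86, 83 with no limit, 886 with quantile normalization and 52 to 184 with a sample left out. Quantile normalization thus gave 54.0% of calls as higher, against 90.8% as reported, and moved the median of all genes from 0.05 to -0.12, while median centring moved it to -0.06. Lists called higher changed as follows. Smooth muscle genes fell to 4 with a mean of at least 1 FPKM and ran from 3 to 7 with a sample left out. Filament dynamics genes fell to 0 with a pseudocount of 1 FPKM, a mean of at least 1 FPKM, quantile normalization, curated transcripts or any sample left out. Crosslinkers fell to 1 with no limit and ran from 1 to 3. Actin-related genes fell to 0 with a pseudocount of 1 FPKM, no limit, a mean of at least 1 FPKM and quantile normalization, and ran from 0 to 1. With curated transcripts only or the most abundant transcript only, which leave out the predicted Acta2 row, the share of Acta2 was 4.311% or 4.314% in untreated and 5.144% or 5.155% in treated cells. The untreated share of Actb was then 57.99% or 58.03%, of Actg1 37.58% or 37.55% and of Actg2 0.0977% or 0.0978%, and Actb was 61.72% of the cytoplasmic pair in treated cells with the latter. The number of samples limits every result. With a single sample in a group, its spread was assumed to be that of the other group. No paired analysis was possible because the groups share no replicate number.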
